A study of Mus musculus with 3 samples.

Results

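The transcripts described here are 48 genes of macrophages and other myeloid cells, measured in cultures of tail tendon derived stem cells. The members are a fixed list of gene symbols, chosen with earlier results of these data known. They were matched by gene ID to the deposited gene tables. All 48 were listed in at least 1 library, among 16621 genes in all. The study sequenced poly(A) RNA from cells of C57BL/6 mice, aged 10 weeks in the series' description, that were grown untreated and collected when confluent at passage 4. There were 3 libraries. The WT group (wild type) has 1 library, and the DF508 group (genotype CFTRΔF508) has 2, replicates 1 and 2. ΔF508 removes a phenylalanine from the chloride channel CFTR and is the most common cause of cystic fibrosis. Nothing in the labels ties either DF508 library to its own mouse or culture, or says how many mice were pooled. The spread between them may therefore be technical. The WT library has no replicate.

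Macrophages are phagocytes that arise from blood monocytes or from precursors seeded before birth, and tendon holds a small resident population of them. Their growth and survival depend on CSF1, which binds the receptor CSF1R, and their identity is set by the transcription factor PU.1, the product of Spi1. Tendon cells are isolated by digesting the tissue and letting cells attach to plastic, and macrophages also attach to plastic. In bulk RNA, more macrophages and more RNA per macrophage cannot be told apart.

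Levels are given as CPM, the expected count of a gene divided by the total of its library and multiplied by 1000000. The libraries held 5298326 (WT), 5241826 (DF508 replicate 1) and 5246886 (DF508 replicate 2) counts. A count of 0 was given an upper limit of 3 counts, which is 0.566, 0.572 and 0.572 CPM in the same order. Intervals cover counting error only. The tendon label was checked with 15 tendon and fibroblast genes, all of them tested, which summed to 52128 CPM in WT, 52785 in DF508 replicate 1 and 55174 in replicate 2. The 8 defining macrophage markers (Ptprc, Csf1r, Adgre1, Itgam, Cd68, Spi1, Tyrobp and Fcer1g) were above 0 in every library but summed to only 21.7, 42.9 and 197 CPM. Macrophage markers were thus present at a low level beside the markers of the labelled cell type.

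The macrophage transcripts were scarce in WT, somewhat more abundant in DF508 replicate 1 and far more abundant in DF508 replicate 2. Summed over the 48 members, the level was 155 CPM in WT (exact 95% interval 145 to 167), 258 CPM in DF508 replicate 1 (245 to 272) and 1129 CPM in DF508 replicate 2 (1100 to 1158). Replicate 2 was 4.37-fold above replicate 1 (exact 95% interval 4.12 to 4.64) and 7.26-fold above WT (6.75 to 7.82). Replicate 1 was 1.66-fold above WT (1.52 to 1.81). The larger step was therefore between the libraries that share a genotype. Lysozyme, Lyz2, had more counts than any other member in every library, and without it the sums were 96.2, 173 and 725 CPM.

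**Figure D1:**
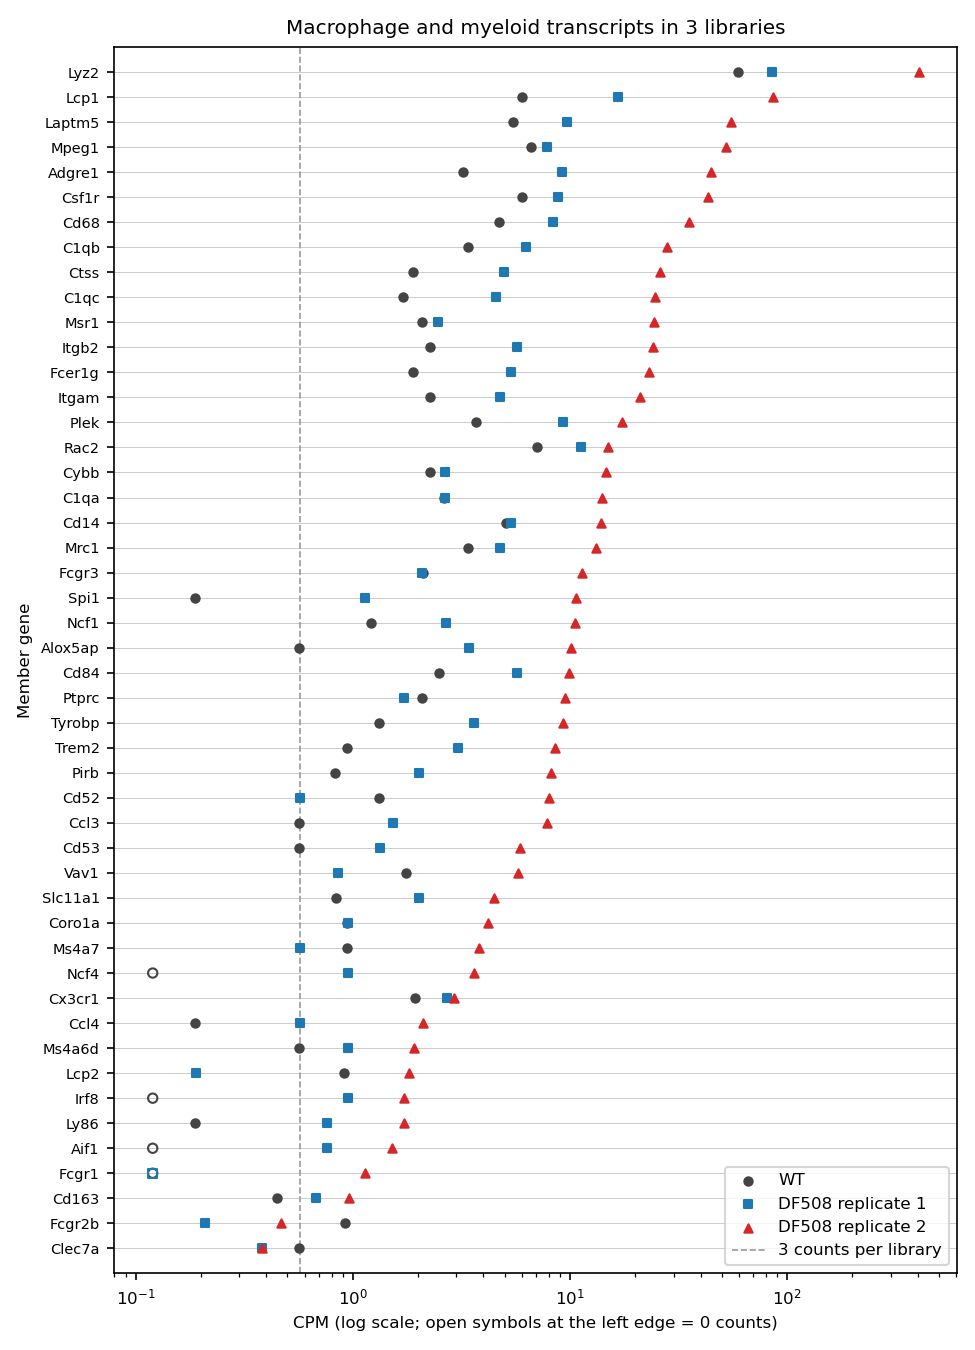
Level of each of the 48 members (rows) in CPM on a log axis, with members ordered by their level in DF508 replicate 2, a circle for WT, a square for DF508 replicate 1 and a triangle for DF508 replicate 2. Open symbols at the left edge stand for 0 counts, and the dashed line marks 3 counts. DF508 replicate 2 was the highest library for 46 members, all but Fcgr2b and Clec7a.

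DF508 replicate 2 was the highest library for 46 of 48 members, where 35.6% of all genes listed were highest there. In 39 of 48 the order was WT, DF508 replicate 1, DF508 replicate 2, against 19.8% of all genes listed. Both DF508 libraries were above WT in 39 of 48 (39.8% of all genes listed) and in 35 of the 41 tested (43.3% of genes tested), and both were below WT in 2 of 48 (28.9%) and in none of the 41 (29.6%). The exceptions to the first count were Fcgr2b and Clec7a, both under 10 counts in every library. A further 6 members were under 10 counts in every library, namely Aif1, Fcgr1, Cd163, Lcp2, Irf8 and Ly86. An expected count that is not whole means that the quantification split reads between this gene and another gene or copy. This was so for 14 members in at least 1 library (within 0.005), which are Lyz2, Itgam, Cd84, Cx3cr1, Fcgr2b, Fcgr3, Pirb, Cd163, Slc11a1, Ncf1, Rac2, Lcp2, Vav1 and Plek, and their values are uncertain.

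For the genotypes, 12888 genes had enough counts to enter edgeR's quasi-likelihood test, where a gene is called at a Benjamini-Hochberg adjusted p under 0.05. Of the 48 members 41 could be tested, and none passed, in either direction. In the same fit 63 genes rose (0.489% of those tested) and 116 fell (0.9%), or 1.39% in either direction. The lowest adjusted p among members was 0.128, for Plek. DESeq2's Wald test and limma-voom also called no member. At an unadjusted p under 0.05 there were 27 members with edgeR, 9 with DESeq2 and 4 with limma-voom, where edgeR had 11.9% of all genes tested (5.86% with a higher level), DESeq2 3.17% and limma-voom 11.3%. The limma-voom count, 4 of 41, is therefore near its background. The fitted difference was positive for all 41, but 11 of them reached the filter on low counts through DF508 replicate 2 alone. A gene's own spread comes from the DF508 pair, which differed severalfold in most of these genes, and is moderated towards that of all genes. A p that misses the threshold does not show that the genotypes have the same level.

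Within the DF508 pair there is 1 library on each side, so no test was made, and a gene counts as different when its log2 CPM (with a prior count of 2) differs by at least 2-fold. Of the 41 tested members 36 were at least 2-fold higher in replicate 2 than in replicate 1, and none was 2-fold lower. Among all genes tested 2.35% were 2-fold higher and 1.37% 2-fold lower. At 4-fold the count was 22 members, against 0.628% of genes. Over all 48 members the median log2 difference was 1.97, which is 3.92-fold, and 37 were past 2-fold, against 4.93% of all genes listed. Of the 30 members that reached the filter through WT or DF508 replicate 1, 26 were past 2-fold, against 1.38% of genes kept the same way.

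DF508 replicate 1 stood closer to WT. The median log2 difference over all 48 members was 0.79, or 0.75 when the 4 members at 0 in WT are set at 3 counts there. Of the tested members 14 were at least 2-fold higher in replicate 1 than in WT, against 2.58% of all genes tested. Of all 48 members 17 were 2-fold higher (4.91% of all genes listed) and 2 were 2-fold lower, and among genes tested 1.59% were lower. At 4-fold there was 1 member, against 0.264% of genes tested. Of the 30 members that reached the filter without replicate 2, 11 were past 2-fold, against 2.39% of genes kept the same way. Some of the 30 reached it through replicate 1 alone, such as Tyrobp, with 7 counts in WT and 19 in replicate 1. This count is therefore not free of selection by replicate 1. For DF508 replicate 2 over WT the median was 2.49, or 2.41 with those members at 3 counts, and 39 tested members were past 2-fold, against 3.88% of genes tested. Of all 48 members 43 were past 2-fold, against 6.23% of all genes listed, and 30 of the tested members were past 4-fold, against 1.03%. Among the 30 members that reached the filter without replicate 2, 29 were past 2-fold, against 2.78% of genes kept the same way. These comparisons share the WT library.

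**Figure D2:**
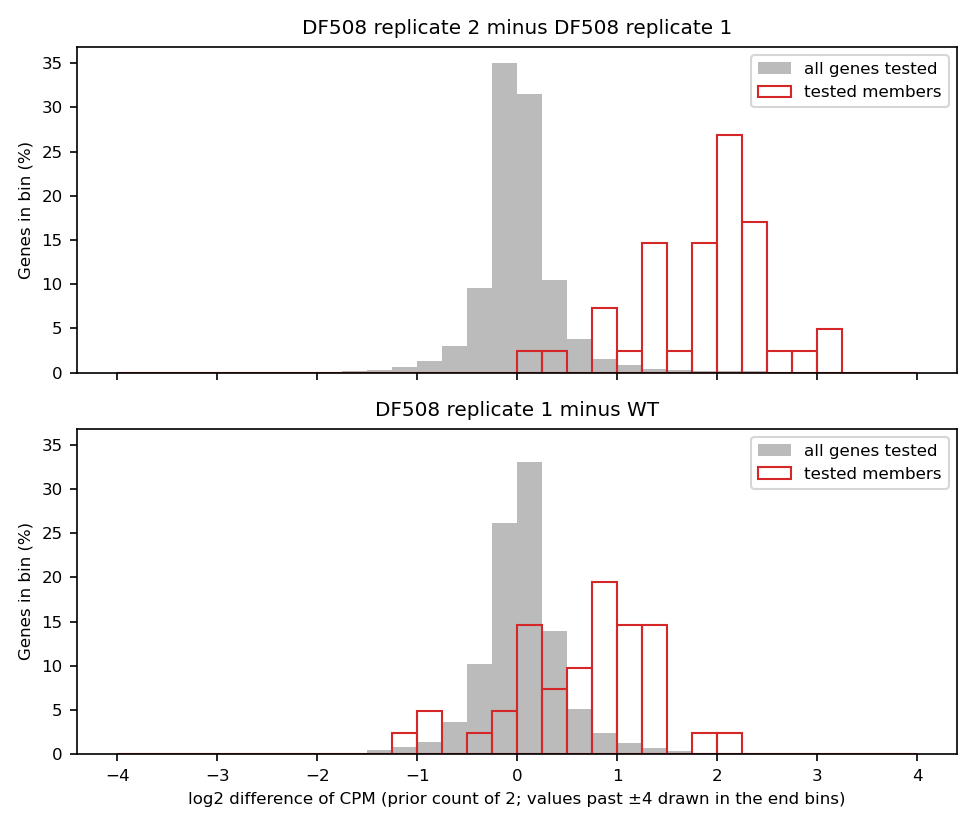
Share of genes (%) in bins of the log2 difference of CPM, for all 12888 genes tested (grey) and the 41 tested members (red outline). The upper panel compares the DF508 libraries and the lower panel DF508 replicate 1 with WT. All genes centre near 0 in both panels, while 36 members lie past 1 in the upper panel and 14 in the lower.

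The surface proteins that define the lineage followed the same order with a few exceptions. Csf1r, the receptor for CSF1, had 32 counts in WT, 46 in DF508 replicate 1 and 226 in replicate 2, or 6.04, 8.78 and 43.1 CPM. Adgre1, which encodes the F4/80 antigen of mouse macrophages, had 3.21, 9.16 and 44.8 CPM. In both genes replicate 2 stood apart, at 4.91-fold (exact 95% interval 3.56 to 6.90) and 4.89-fold (3.57 to 6.82) above replicate 1. Adgre1 was already 2.85-fold above WT in replicate 1 (1.61 to 5.29), and Csf1r 1.45-fold (0.906 to 2.36). For Adgre1 the DF508 mean was 27.0 ± 25.2 CPM (SD, n = 2), with a log2 fold change from WT of 3.02 ± 0.91 (SE) and an adjusted p of 0.202 in edgeR's quasi-likelihood test.

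Cd68, a membrane protein of lysosomes in phagocytes, had 4.72, 8.39 and 35.4 CPM in the same order of libraries. The integrin chains Itgam and Itgb2, which pair as the complement receptor CR3, followed the same order. Itgam had 2.26, 4.77 and 21.1 CPM and Itgb2 had 2.26, 5.72 and 24.0 CPM. The ratio between the DF508 libraries was 4.42 (exact 95% interval 2.85 to 7.15) for Itgam and 4.2 (2.8 to 6.47) for Itgb2.

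Ptprc, the CD45 phosphatase of all blood-derived nucleated cells, had 11, 9 and 50 counts, so that WT and DF508 replicate 1 overlap within counting error and replicate 2 was 5.55-fold above replicate 1 (2.7 to 12.8). The small surface antigen Cd52 had 7, 3 and 42 counts. The tetraspanin Cd53 had 3, 7 and 31 counts. Cd14, the co-receptor for bacterial lipopolysaccharide, differed less, with 5.1, 5.34 and 13.9 CPM and a ratio of 2.6 between the DF508 libraries (1.66 to 4.18). Cd84, a receptor of the SLAM family, had 2.5, 5.69 and 9.89 CPM. The fractalkine receptor Cx3cr1 was near level, with 1.94, 2.72 and 2.94 CPM. Both share reads. Aif1, which encodes the calcium-binding protein IBA1, had 0, 4 and 8 counts, too few to separate the DF508 libraries (ratio 2, exact 95% interval 0.535 to 9.07).

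The adaptors Tyrobp and Fcer1g carry activating signals for receptors that have no signalling tail of their own. Tyrobp had 1.32, 3.62 and 9.34 CPM, and Fcer1g had 1.89, 5.34 and 23.1 CPM. Trem2, a lipid receptor that signals through Tyrobp, had 5, 16 and 45 counts. Its ratio between the DF508 libraries was 2.81 (1.56 to 5.33), close to the 2.58 of Tyrobp (1.49 to 4.63). Of the receptors for immunoglobulin, the activating Fcgr3 had 2.1, 2.08 and 11.3 CPM, level between WT and replicate 1, and the high-affinity Fcgr1 was at 0 counts in WT and replicate 1 and at 6 in replicate 2. The inhibitory Fcgr2b had at most 4.89 counts, in WT. Fcgr2b and Fcgr3 share reads, so their split is uncertain. The inhibitory receptor Pirb, which also shares reads, had 0.825, 2.01 and 8.21 CPM.

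Among receptors for modified lipids and sugars, the class A scavenger receptor Msr1 showed a large step. It had 11 counts in WT, 13 in DF508 replicate 1 and 128 in replicate 2, a ratio of 9.84 between the DF508 libraries (5.55 to 19). WT and replicate 1 were close together, and replicate 2 stood alone. The mannose receptor Mrc1 had 3.4, 4.77 and 13.2 CPM, a ratio of 2.76 (1.72 to 4.55). The haemoglobin scavenger receptor Cd163 and the beta-glucan receptor Clec7a were under 10 counts in every library, with at most 5.04 and 3 counts.

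The chains of C1q, the recognition molecule of the classical complement pathway, are made mainly by macrophages and assemble in equal numbers. To set genes side by side within a library, the deposited FPKM is used, which also divides by gene length. C1qa, C1qb and C1qc had 2.49, 3.26 and 1.63 FPKM in WT. They had 2.52, 6.05 and 4.4 FPKM in DF508 replicate 1 and 13.3, 26.9 and 23.8 FPKM in replicate 2. All 3 chains were highest in replicate 2, at 5.28-fold (2.96 to 10.1), 4.45-fold (3.03 to 6.7) and 5.41-fold (3.48 to 8.75) above replicate 1 in CPM. C1qa was level between WT and replicate 1 (14 counts each), while C1qc had 9 and 24 counts.

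Among lysosomal and antimicrobial products, Lyz2, the lysozyme of macrophages, had 59.3, 85.3 and 404 CPM. On the FPKM scale it was 57.2, 82.3 and 390, which ranked 1038, 687 and 139 among all genes of each library and first among the members. Lyz2 shares reads with its neighbour Lyz1, which had 7.71, 6.89 and 33.2 CPM. The ratios between the DF508 libraries were 4.73 for Lyz2 (4.27 to 5.25) and 4.82 for Lyz1 (3.36 to 7.12).

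The lysosomal membrane protein Laptm5 had 5.47, 9.73 and 55.3 CPM. Mpeg1, which encodes the pore-forming perforin-2, had 6.61, 7.82 and 52.6 CPM, with a ratio of 6.73 between the DF508 libraries (4.83 to 9.58). The cathepsin Ctss, which trims the class II invariant chain, had 1.89, 4.96 and 25.9 CPM. The metal transporter Slc11a1 of the phagosome had 0.834, 2.02 and 4.48 CPM and shares reads. Lysosomal genes of general use were set beside these. Of 24 such genes tested, 2 fell in DF508, against 0.9% of all genes tested, and none rose. None was 2-fold different between the DF508 libraries. The protease Lgmn, 1 of those that fell, had 443, 286 and 329 CPM (log2 fold change -0.57 ± 0.11 SE, adjusted p = 0.048, edgeR).

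The phagocyte NADPH oxidase makes superoxide from a membrane core and cytosolic subunits. Its catalytic core Cybb had 12, 14 and 77 counts. The cytosolic subunit Ncf1 had 1.22, 2.68 and 10.5 CPM, and Ncf4 had 0, 5 and 19 counts. Ncf4 was therefore at least 6.39-fold higher in DF508 replicate 2 than in WT, against 3 counts in WT. Rac2, the small GTPase of this complex in blood cells, had the smallest ratio of this group, with 7.09, 11.2 and 15.1 CPM and 1.34 between the DF508 libraries (0.943 to 1.91), and it shares reads. Other oxidase genes, from a list of 10, had 7 listed and tested and none past the threshold. The membrane partner Cyba, which many cell types express, had 37.6, 39.1 and 46.1 CPM.

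Among genes of the leukocyte cytoskeleton and of signalling, Lcp1, the actin-bundling protein L-plastin, had 32 counts in WT, 87 in DF508 replicate 1 and 450 in replicate 2. The 3 libraries did not overlap within counting error: replicate 1 was 2.75-fold above WT (1.81 to 4.26) and replicate 2 was 5.17-fold above replicate 1 (4.1 to 6.58). Its log2 fold change between genotypes was 3.03 ± 0.92 (SE), with an adjusted p of 0.206 (edgeR). Plek, or pleckstrin, which binds membrane lipids, had 3.7, 9.27 and 17.4 CPM and the lowest adjusted p of the members (log2 fold change 1.77 ± 0.45 SE, adjusted p = 0.128, edgeR). The actin regulator Coro1a had 5, 5 and 22 counts. The exchange factor Vav1 had 1.76, 0.853 and 5.77 CPM, lowest in replicate 1. The adaptor Lcp2 had at most 9.5 counts.

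The remaining members had few counts. Ccl3 and Ccl4, chemokines of activated macrophages, had 3, 8 and 41 counts and 1, 3 and 11 counts. Alox5ap, which presents arachidonic acid for leukotriene synthesis, had 3, 18 and 53 counts and was 6.06-fold above WT in DF508 replicate 1 (1.77 to 32.1). Its edgeR log2 fold change between genotypes was 3.48 ± 0.92 (SE, adjusted p = 0.149). Ly86, a partner of a Toll-like receptor relative, had 1, 4 and 9 counts. The membrane proteins Ms4a7 and Ms4a6d had 5, 3 and 20 counts and 3, 5 and 10 counts.

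Spi1, which encodes PU.1, had 1 count in WT, 6 in DF508 replicate 1 and 56 in replicate 2. Replicate 2 was 9.32-fold above replicate 1 (4.03 to 26.5). The ratio of replicate 1 to WT, 6.06, rests on 1 count in WT and has an interval of 0.736 to 279. Irf8, a partner of PU.1 in monocytes, had 0, 5 and 9 counts. PU.1 binds the letters GAGGAAGT, so the promoters of the members were searched for them on both strands. RefSeq promoter windows (GRCm38.p6, another build than the counts, from 250 bases before a start to 50 after) matched 34 of 48 members, with 41 windows. Adgre1, Alox5ap, C1qa, Ccl4, Cd14, Cd52, Csf1r, Itgb2, Ms4a6d, Msr1, Ncf4, Rac2, Spi1 and Tyrobp had no window. The letters were in 5 of 41 windows (12.2%), against 3.2% of 32851 windows of all genes. These 5 are shown because they hold the motif of PU.1, the product of Spi1. Each line gives 100 bases on the strand of the gene, 5′ to 3′, with the motif in capitals (ACTTCCTC is the same motif read on the other strand):
C1qc (chr4:136893060-136893159, minus strand): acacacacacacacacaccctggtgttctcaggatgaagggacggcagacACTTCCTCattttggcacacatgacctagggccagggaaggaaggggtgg
Cd53 (chr3:106790130-106790229, minus strand): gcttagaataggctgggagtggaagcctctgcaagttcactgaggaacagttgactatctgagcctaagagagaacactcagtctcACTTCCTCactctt
Ctss (chr3:95526706-95526805, plus strand): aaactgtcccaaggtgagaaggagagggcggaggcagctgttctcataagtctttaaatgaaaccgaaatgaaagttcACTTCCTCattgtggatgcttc
Pirb (chr7:3720453-3720552, minus strand): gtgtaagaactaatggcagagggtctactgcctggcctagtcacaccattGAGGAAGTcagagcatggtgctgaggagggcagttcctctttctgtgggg
Vav1 (chr17:57279020-57279119, plus strand): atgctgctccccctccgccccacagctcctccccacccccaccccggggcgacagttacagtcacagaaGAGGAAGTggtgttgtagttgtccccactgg

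In Ctss and Vav1 the motif began 2 and 11 bases before the start of transcription, and in Cd53 it lay just after it. In Pirb and C1qc it began 120 and 195 bases before. The motifs of other factors were searched the same way. The AP-1 letters TGANTCA were in 12.2% of member windows and 7.81% of all windows, and an IRF motif in 9.76% and 3.44%. The C/EBP letters TTGCNNAA were in 9.76% and 10.8%, and the TATA box TATAAA in 12.2% and 13.6%. A match is a run of letters and not evidence of binding, and the windows of a gene with several starts overlap in part. No test was made.

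The members did not all differ by the same ratio. For 40 of 48 the counting interval of the ratio between the DF508 libraries held the ratio of the summed counts, 4.37. Cd52, Msr1 and Mpeg1 lay above it. Cd14, Cd84, Cx3cr1, Rac2 and Plek lay below it, and all of these except Cd14 share reads with another gene or copy. Over the groups of members by role, the summed ratio went from 2.5 for the oxidase genes (1.95 to 3.22) to 5.9 for the transcription factors Spi1 and Irf8 (3.09 to 12.4).

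**Figure D3:**
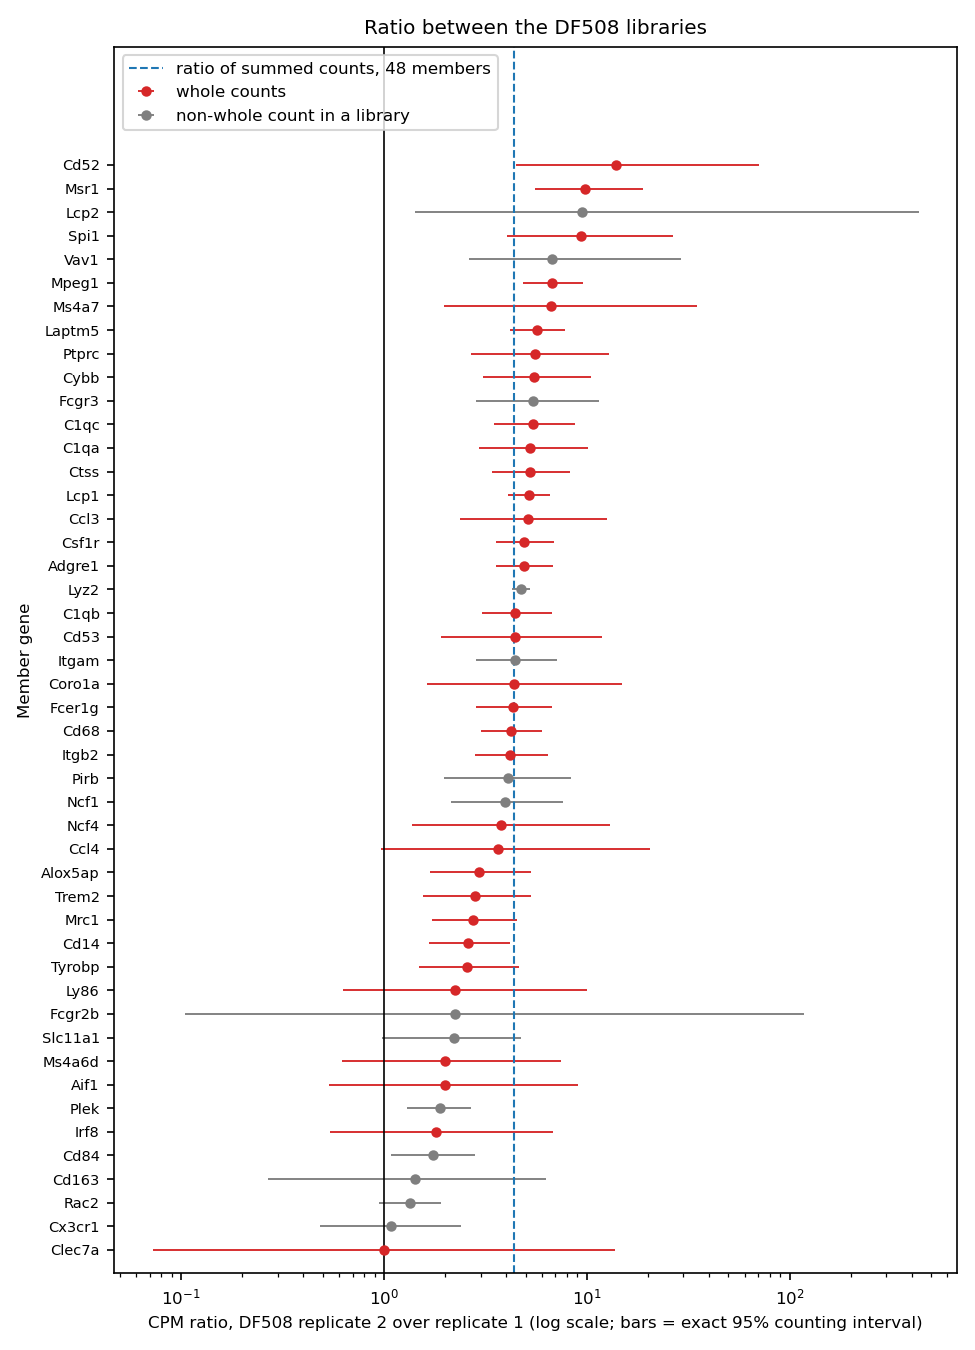
Ratio of CPM between DF508 replicate 2 and replicate 1 for 47 members (Fcgr1 is left out, at 0 in replicate 1), on a log axis with exact 95% counting intervals. Red points have whole counts in every library and grey points do not, and the dashed line is the ratio of summed counts, 4.37. The points nearest to 1 are Clec7a, Cx3cr1, Cd163 and Rac2, and those of most well-counted members lie around the dashed line.

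Other genes of blood-derived cells were set beside the members. Their lists were chosen for this tissue with earlier results of these data known, so they are not an independent check. Of 22 further signalling genes of blood cells 18 were tested and none passed, and 14 of the 18 were at least 2-fold higher in DF508 replicate 2 than in replicate 1. Some of them reached the filter on low counts through replicate 2 alone. Of the 12 that reached it through WT or replicate 1, a count added after seeing the data, 8 were past 2-fold, against 1.38% of genes kept the same way. The phosphatase Ptpn6 (SHP-1) had 9, 2 and 44 counts in WT and DF508 replicates 1 and 2, the actin regulator Nckap1l had 8, 15 and 106, and the tetraspanin Cd37 had 2, 2 and 20. The selectin ligand Selplg, with 1.35, 0.385 and 4.86 CPM, shares reads. Arhgdib and Evi2a, the genes of this list with the highest CPM, showed no such step, with 382, 343 and 335 CPM and 41.3, 34.3 and 30.3 CPM.

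Of 34 further myeloid receptors 32 were listed and 17 tested. None passed, and 9 were at least 2-fold higher in replicate 2 than in replicate 1, against 2.35% of all genes tested. Of the 10 that reached the filter without replicate 2, 3 were past 2-fold, against 1.38% of genes kept the same way. The lectin Clec4d had 6, 5 and 48 counts and the integrin chain Itgal 3, 5 and 42. Cd200r1 had 2, 0 and 14 counts, and Cd33 had 4.87, 0 and 14.1. Sirpa, the receptor for the CD47 signal, was abundant in all libraries, with 122, 113 and 165 CPM, as was Cd300a with 25, 27.9 and 28.1 CPM.

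Markers of macrophage subsets were uneven. Of 21 genes of tissue macrophages 11 were tested, of which 3 fell, against 0.9% of all genes tested, and none rose. In replicate 2, 5 of the 11 were 2-fold higher than in replicate 1, against 2.35% of all genes tested. Of the 10 that reached the filter without replicate 2, 4 were past 2-fold, against 1.38% of genes kept the same way. The folate receptor Folr2 had 6, 16 and 91 counts, the elastase Mmp12 25, 21 and 119, and the sialic acid receptor Siglec1 22, 17 and 70. The genes that fell are abundant ones that other cells express too. Gas6, a ligand of the TAM receptors, had 5000 CPM in WT and 3783 and 3570 CPM in DF508 (log2 fold change -0.49 ± 0.08 SE, adjusted p = 0.0225, edgeR), and Gpnmb and the haem oxygenase Hmox1 also fell. Of 18 activation genes 8 were tested and none passed. The list summed to 149, 127 and 131 CPM, nearly level between the DF508 libraries. In replicate 2, 2 of the 8 were 2-fold higher than in replicate 1, against 2.35% of all genes tested. Of the 6 that reached the filter without replicate 2, none was past 2-fold, against 1.38% of genes kept the same way. The cytokine Tnf had 1, 6 and 32 counts, Cxcl2 1, 6 and 16.8, Ccl5 31, 46 and 88, and Ccl9 17.2, 14.3 and 25.4 CPM. Ptgs2, the inducible cyclooxygenase, was lowest in replicate 2, with 105, 81.7 and 56.6 CPM.

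Class II antigen presentation genes, with 4 of 7 tested, did not pass. The invariant chain Cd74 had 9, 9 and 25 counts and the beta chain H2-Ab1 13, 3 and 9, while H2-DMa had 10.4, 10.1 and 12.4 CPM and H2-DMb1 11.5, 11.6 and 12.4 CPM.

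Among the other cell types that a tendon culture could hold, T, NK and B cell genes were few, and the rest were uneven. In WT and DF508 replicates 1 and 2 the neutrophil list summed to 21.6, 17.7 and 20.5 CPM. The endothelial list summed to 19.3, 16.2 and 15.4 CPM, and the osteoclast list to 138, 139 and 146 CPM. In WT the 8 macrophage markers, at 21.7 CPM, were close to the neutrophil and endothelial sums and below the osteoclast sum. The other cell type lists summed to less. The lists hold different numbers of genes, so these sums do not rank the cell types. Of 19 T and NK cell genes 9 were at 0 in every library and none reached the filter, and of 10 B cell genes 6 were at 0 and none reached it. No T or NK cell gene was above 7.2 counts in a library and no B cell gene above 6. By mean level Cd8a and Gzmb were the highest of the former (at most 7 and 6 counts), and Jchain and Fcer2a of the latter (at most 6 and 5.72). For neutrophils 8 of 12 genes were at 0. Cxcr2 alone was tested there, with 20.3, 16.9 and 20.1 CPM, and shares reads. For mast cells 4 of 9 were at 0, and Gata2, also a gene of other tissues, had 63, 108 and 51 counts. For endothelium 5 of 10 were at 0, and Tek had 14.5, 13.2 and 12.4 CPM. For erythroid cells and platelets 5 of 10 were at 0, and Itga2b had 23, 30 and 44 counts. Dendritic cell genes had 3 of 8 at 0, with Zbtb46 at 4, 5 and 11 counts and Xcr1 at 2.34, 2.37 and 2.86 CPM. Of 11 osteoclast genes 7 were tested and none passed. The most abundant were Ctsk, with 91.2, 73.3 and 81.2 CPM, and Nfatc1, with 32.5, 41.8 and 35.8 CPM. The gelatinase Mmp9 had 18, 47 and 61 counts, Acp5 6, 14 and 11, and the RANK receptor Tnfrsf11a 2.03, 3.8 and 6.43 CPM.

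**Figure D4:**
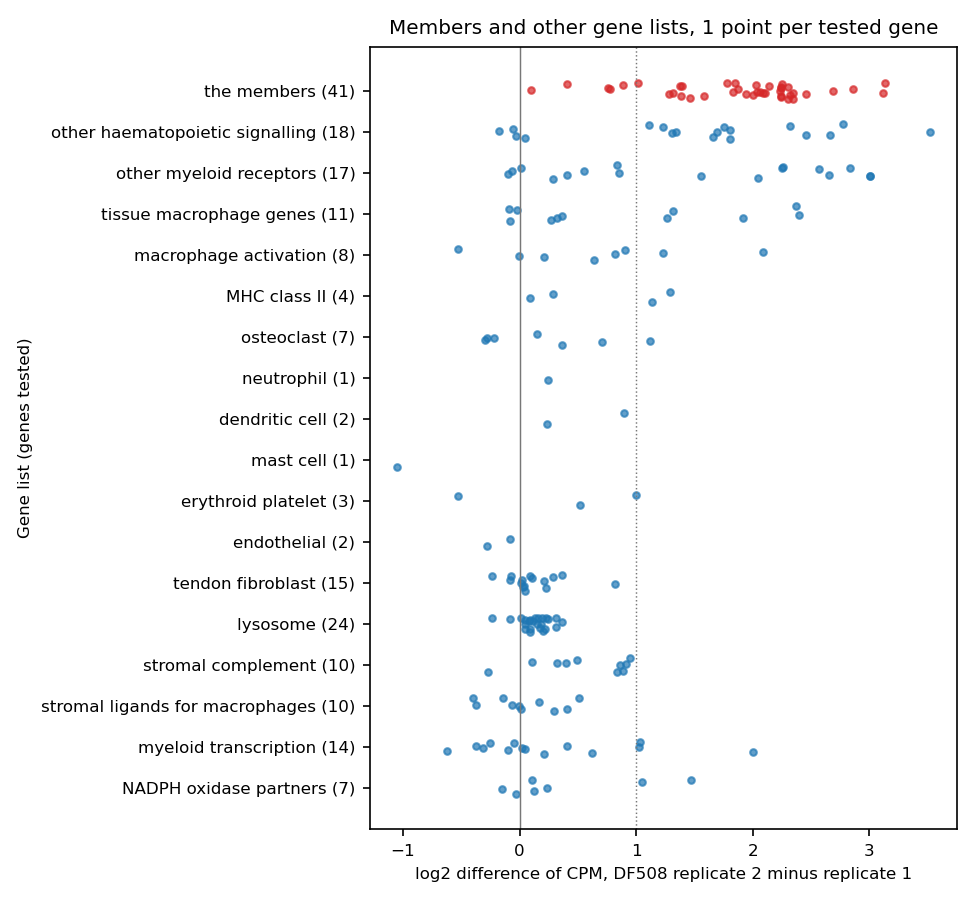
The log2 difference of CPM between DF508 replicate 2 and replicate 1, with 1 point per tested gene, for the members (red) and the other lists (blue), and the number tested in brackets. The dotted line marks 2-fold. Members, further myeloid receptors and further signalling genes of blood cells reach past it. No tested neutrophil, dendritic cell, mast cell, erythroid or platelet gene does, and all 24 lysosomal and 15 tendon genes stay below it. The T and NK and B cell lists have no gene tested.

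Of 10 tested stromal ligands that act on macrophages, none was 2-fold different between the DF508 libraries. Csf1, the ligand of Csf1r, named here outside the rule after its values were seen, had 3769, 3689 and 3719 CPM and differed little between the libraries (log2 fold change -0.07 ± 0.07 SE, adjusted p = 0.786, edgeR). Between the genotypes 3 of the 10 tested ligands fell and none rose, where 0.9% of all genes tested fell and 0.489% rose. Ccl2, which attracts monocytes, had 589 CPM in WT and 314 and 284 CPM in DF508 (log2 fold change -1.02 ± 0.10 SE, adjusted p = 0.00587, edgeR). Ccl7 had 343, 221 and 168 CPM (adjusted p = 0.0333) and Mif 210, 125 and 120 CPM (adjusted p = 0.0111, edgeR). Both chemokines were lowest in DF508 replicate 2, and their part in the macrophage result was not tested. Cxcl12, which retains blood cells in tissue, had 2184, 1943 and 2577 CPM, and the ligand of Cx3cr1, Cx3cl1, had 62.1, 73.3 and 56.4 CPM.

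Of 18 further transcription factors used in myeloid cells, 14 were tested, of which 2 fell, against 0.9% of all genes tested, and none rose. The 2 that fell were Klf4 (162, 106 and 99.1 CPM, adjusted p = 0.0213) and Cebpd (127, 75 and 86.9 CPM, adjusted p = 0.0333, edgeR), both also expressed in stromal cells. The lymphoid and myeloid factor Ikzf1 had 1, 2 and 14 counts and Irf5 19, 21 and 45. Of 10 tested complement genes of stromal cells none was 2-fold different between the DF508 libraries. Among them C3 (489, 417 and 771 CPM) and Serping1 (230, 208 and 376 CPM) were highest in replicate 2, and their part in the macrophage result was not tested. Among paralogs of the members, Rac1 had 422, 429 and 420 CPM beside the 7.09, 11.2 and 15.1 CPM of Rac2, and Laptm4b fell (47.9, 28.0 and 28.8 CPM, adjusted p = 0.0429, edgeR).

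Outside the members and lists, the 12 genes furthest above replicate 1 in replicate 2, at 30 counts or more there, were ranked in this direction only. Of these, Cd300ld (4.91, 8.88 and 71.5 counts), Lilrb4a (20.6, 37 and 232), Lilr4b (7.35, 17 and 94.9) and Clec12a (3, 14 and 79) are receptors of myeloid cells, and Myo1f (9, 9 and 72) is a myosin of blood cells. Cd300ld, Lilrb4a and Lilr4b share reads with other genes or copies, so their values are uncertain. The other 7 of these 12 were Tmem254b, a gene with no symbol in the reference (gene ID 627914), Gvin1, Dynlt1b, Rnaset2b, St3gal6 and Myoc. All of these except Myoc were at 0 in replicate 1, and all except Myoc and St3gal6 share reads with other genes or copies. Myoc had 21, 7 and 59 counts.

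The tendon markers were nearly level between the DF508 libraries. Their sum had a ratio of 1.05 (1.04 to 1.05), with none of 15 genes past 2-fold. Among them Tnmd, a marker of mature tendon cells, had 92.7, 109 and 192 CPM, and Lum 182, 271 and 348 CPM, both highest in replicate 2. Dcn rose in DF508 (725, 1031 and 1110 CPM, adjusted p = 0.0417, edgeR). The part of these genes in the macrophage result was not tested.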

How the data were processed

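RNA from 3 libraries (1 WT, 2 DF508) was analysed. The authors deposited, per library, expected counts and FPKM per gene, and per the submitters' processing notes the tools were Bowtie and RSEM with mm9, with no versions stated. RSEM expected counts need not be whole, because reads that match several genes are split between them. The deposited FPKM values divide by gene length and library size, and were used to set genes side by side within a library. The expected counts deposited per gene were summed to the library total for CPM, and a gene not listed in a library was taken as 0. Gene IDs were named from RefSeq tables (GRCm38.p6), which gave symbols to 16579 of 16621 IDs.

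Expected counts were rounded and tested with edgeR 4.0.16 (limma 3.58.1, R 4.3.3): filterByExpr with a minimum count of 10 and a total of 15, TMM factors, the quasi-likelihood test for genotype, and Benjamini-Hochberg adjustment over all 12888 genes tested, with a threshold of 0.05. Only the DF508 pair gives a gene its own spread (1 residual degree of freedom), which edgeR moderates towards that of all genes (7.72 prior degrees of freedom). The p-values set the difference of DF508 from WT against this spread, which may be technical. The procedure was tested on simulated data. Single libraries were compared on log2 CPM with a prior count of 2, with no test, and ratios of counts have exact conditional binomial 95% intervals. DESeq2 1.42.0, limma-voom, limma-trend on FPKM, other scalings, filters and prior counts were alternatives.

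The members and gene lists were chosen with earlier results of these data known. All members could be named. In each list, the genes named were those called (up to 4, by size of fold change) or, with none called, up to 2 of the highest mean level. To these came up to 4 with the widest difference between the DF508 libraries, where the mean was 1 CPM or more, and the 12 genes outside the lists with the largest such difference upwards in replicate 2, at 30 counts or more there. The results of a few list genes are not reported here.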

Additional observations from a re-analysis of the deposited data

How the results depend on the processing

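No member was called in the genotype comparison under any of the 10 other scalings, filters and tests that were run. These did not cover the same members: from 15 (mean of at least 50 counts) to 48 (no filter on low counts) were tested. DESeq2's Wald test gave many members no adjusted p, so they could not be called there. The number of genes called among all tested was 179. It was 0 with library totals only (1253 genes at an unadjusted p under 0.05), 0 with no filter on low counts (1123), 0 with limma-trend on log2(FPKM + 1) (1145), 0 with limma-trend on log2(FPKM + 0.1) (1159) and 63 with DESeq2's Wald test; the cause was not tested. The other alternatives gave between 134 and 189 genes.

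The number of members at least 2-fold higher in DF508 replicate 2 than in replicate 1, 36 of 41, was 13 with a mean of at least 50 counts, where 15 members were left, and 22 at 4-fold. The other alternatives gave 26 to 37, but not of the same number of members. The 26 were of 30 that reached the filter in WT or DF508 replicate 1, and the 37 were of all 48. With whole counts only it was 28 of 29. The summed level in WT and DF508 replicates 1 and 2 was 96.2, 173 and 725 CPM without Lyz2, and 69.6, 129 and 615 CPM, with a ratio of 4.78 between the DF508 libraries, over members with whole counts only, since each sum holds fewer genes. The median over all 48 members of the difference between the DF508 libraries, 1.97, was 1.23 on log2(FPKM + 1) and 2.07 with a prior count of 0.5, in alternatives chosen after seeing the data.

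Leaving out a DF508 library leaves 1 library against 1, which gives a value with no test and no count of calls. The log2 difference from WT without replicate 2, then without replicate 1, was -0.26 and 1.97 for Ptprc, -0.87 and 2.26 for Cd52, -0.023 and 2.22 for Fcgr3, -0.024 and 2.22 for C1qa, -1.24 and 0.75 for Lcp2, -0.019 and 1.75 for Coro1a, -0.89 and 1.51 for Vav1, and -0.50 and 1.63 for Ms4a7. These 8 changed sign without replicate 2. Lcp2 was also at -0.50 with limma-voom. No paired analysis was possible because WT has 1 library and its label carries no replicate number.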
